A study of Rattus norvegicus with 56 samples.

Results

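The genes described here are 9 transcripts of resident macrophages and other myeloid cells: C1qa, C1qb, C1qc, Csf1r, Cd68, Plek, Clec4a3, Rgs18 and Lgals9. They are 9 of the 32883 gene identifiers of the series, taken by symbol at 30 min and carried to 3 h by their Ensembl identifier. They were chosen by their measured values: the C1q genes for higher levels in the collecting duct and the set for lower levels in the thick ascending limb, both 3 h after ureter ligation. Differences of the 9 genes between groups at 3 h are therefore given as a description without a test. Tests of such differences are kept to the 30 min libraries, which the choice did not use. Correlations among the 9 genes use deviations from group means at both times, and genes outside the 9 are tested at 3 h too.

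The study dissected single tubule segments from rat kidneys after unilateral ureteral obstruction (UUO), a surgical model of a blocked urinary tract, and sequenced their RNA. All rats were male Sprague-Dawley animals of 120 to 160 g. In the UUO arm the left ureter was exposed through the flank and tied near the renal pelvis, and in the sham arm it was exposed in the same operation and not tied. One segment was the CCD (cortical collecting duct), which sets final water and salt excretion under vasopressin and aldosterone, and the other the cTAL (cortical thick ascending limb), which takes up salt without water. Each was taken at 30 min and at 3 h, which gives 8 groups: CCD sham, CCD UUO, cTAL sham and cTAL UUO at each time. Every group held 4 numbered replicates, with 2 libraries per number in CCD and 1 in cTAL, 48 libraries in all. The labels do not say which libraries share an animal, so p-values measure the spread between these samples, which may be technical in part. Another 8 whole-kidney samples were not analysed here.

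Macrophages lie between the tubules of a healthy kidney, where they clear debris and sample filtered material. They depend on signalling through the receptor encoded by Csf1r, whose ligands are CSF1 and IL-34, and they are a main source of C1q, the recognition molecule that starts the classical complement pathway when it binds immune complexes or dying cells. C1q is assembled from A, B and C chains, each from its own gene.

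In the RefSeq gene table for rat (assembly GRCr8), C1qb, C1qc and C1qa follow each other on chromosome 5 with no other protein-coding gene between them, and Lgals9 lies beside Lgals5 on chromosome 10. RefSeq promoter windows of 300 bases, 250 before and 50 after the start of each gene, were at hand for 7 of the 9 genes, all but C1qc and Plek. The windows of C1qa and C1qb are shown because the means of these neighbours differed in the same direction in each segment at 3 h, and those of Cd68 and Lgals9 because in cTAL one followed the C1q genes from replicate to replicate and the other did not pass that test. Capitals mark GAGGAA, the core bound by the myeloid factor PU.1 (encoded by Spi1), and TGANTCA, the site of AP-1, the Fos and Jun dimer, each searched on both strands. The windows lie on the minus strand of GRCr8 at chr5:154419884-154420183 (C1qa), chr5:154407778-154408077 (C1qb), chr10:54882392-54882691 (Cd68) and chr10:64428021-64428320 (Lgals9), and read 5′ to 3′.
C1qa: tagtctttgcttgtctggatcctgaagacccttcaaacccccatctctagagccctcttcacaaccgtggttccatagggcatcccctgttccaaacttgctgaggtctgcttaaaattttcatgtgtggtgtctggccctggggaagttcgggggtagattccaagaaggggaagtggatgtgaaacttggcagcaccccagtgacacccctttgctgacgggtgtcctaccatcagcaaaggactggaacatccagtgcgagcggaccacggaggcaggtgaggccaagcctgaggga
C1qb: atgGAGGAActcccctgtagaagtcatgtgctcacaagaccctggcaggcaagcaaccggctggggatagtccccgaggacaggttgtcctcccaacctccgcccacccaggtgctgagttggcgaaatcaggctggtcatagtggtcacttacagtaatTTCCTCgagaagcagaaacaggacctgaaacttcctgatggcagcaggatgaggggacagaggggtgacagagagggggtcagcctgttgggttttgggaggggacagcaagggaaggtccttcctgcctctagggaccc
Cd68: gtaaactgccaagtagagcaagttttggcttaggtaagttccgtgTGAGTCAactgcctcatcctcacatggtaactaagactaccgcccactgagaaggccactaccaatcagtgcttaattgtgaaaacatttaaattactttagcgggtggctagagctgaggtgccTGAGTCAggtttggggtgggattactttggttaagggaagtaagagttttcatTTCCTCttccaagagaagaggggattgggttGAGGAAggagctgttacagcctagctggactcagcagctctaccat
Lgals9: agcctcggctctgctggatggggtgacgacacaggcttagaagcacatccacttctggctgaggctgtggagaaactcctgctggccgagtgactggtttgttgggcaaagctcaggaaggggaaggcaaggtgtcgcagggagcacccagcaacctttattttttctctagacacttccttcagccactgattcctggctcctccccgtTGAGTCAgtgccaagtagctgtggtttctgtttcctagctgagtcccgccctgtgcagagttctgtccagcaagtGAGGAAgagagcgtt

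The PU.1 core was in 6 of the 7 windows, and in 27.5% of all 27457 rat promoter windows of this length. Counting from the start of the gene, the C1qb window held it at positions -247 and -90, that of Cd68 at -27 and 5, and that of Lgals9 at 36. It was not among the letters of the C1qa window. The AP-1 site was in 2 of the 7 windows and in 7.33% of all windows: Cd68 held it at -205 and -80, and Lgals9 at -40. The 2 motifs do not overlap in any printed window. A match of letters is a description of the window and not evidence of binding.

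The deposited values are TPM, a relative abundance of transcripts, which are scaled to each transcript's length and to the library, so levels of different genes can be set side by side. The libraries held between 8744 and 11916 genes at 1 TPM or more at 30 min and between 9585 and 10750 at 3 h. The number of reads behind them is unknown. The labelled segments carried their markers, though 3 CCD replicates at 3 h also held thick ascending limb transcripts well above the other CCD replicates: Aqp2, Aqp3, Avpr2, Scnn1b and Scnn1g of principal cells summed to 4581 to 17023 TPM in CCD replicates and to 46.8 to 556 TPM in cTAL, and Umod, Slc12a1, Cldn16 and Cldn10 of the thick ascending limb to 30467 to 70631 TPM in cTAL and 42.8 to 9837 TPM in CCD. These are bulk samples, so fewer macrophages and less RNA per macrophage cannot be told apart. Macrophage markers outside the 9 genes were also present: the sum over 18 of them, among them Adgre1, Cx3cr1, Aif1, Lyz2 and Cd74, lay between 191 and 1060 TPM in CCD replicates and between 1233 and 3619 TPM in cTAL. Cd74 and Lyz2 made up most of this sum in sham at 30 min. Their means were 895 and 799 TPM of 1868 TPM in cTAL, and 151 and 160 TPM of 377 TPM in CCD. Marco, a scavenger receptor of some tissue macrophages, was listed at 0 in every library of both times, while Vsig4, Cd163 and Siglec1 were listed at 0 in all libraries of some groups only.

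Of the 9 genes, C1qb was the most abundant in the sham CCD at 30 min, with a mean of 10.7 ± 3.25 TPM (SD, n = 4), and Rgs18 the least, with 0.665 ± 0.213 TPM (SD, n = 4). C1qc, Lgals9 and C1qa followed C1qb at 9.67 ± 2.37, 8.02 ± 3.70 and 6.62 ± 2.78 TPM, and these 4 neighbours in the order lay within each other's SD or close to it. In the sham cTAL the C1q genes had the 3 highest means, C1qb at 53.6 ± 27.3, C1qc at 43.4 ± 19.3 and C1qa at 25.6 ± 16.8 TPM (SD, n = 4). Csf1r stood at 24.7 ± 8.31 TPM there, level with C1qa, whereas in CCD it stood at 3.04 ± 0.836 TPM, below C1qa.

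**Figure D1:**
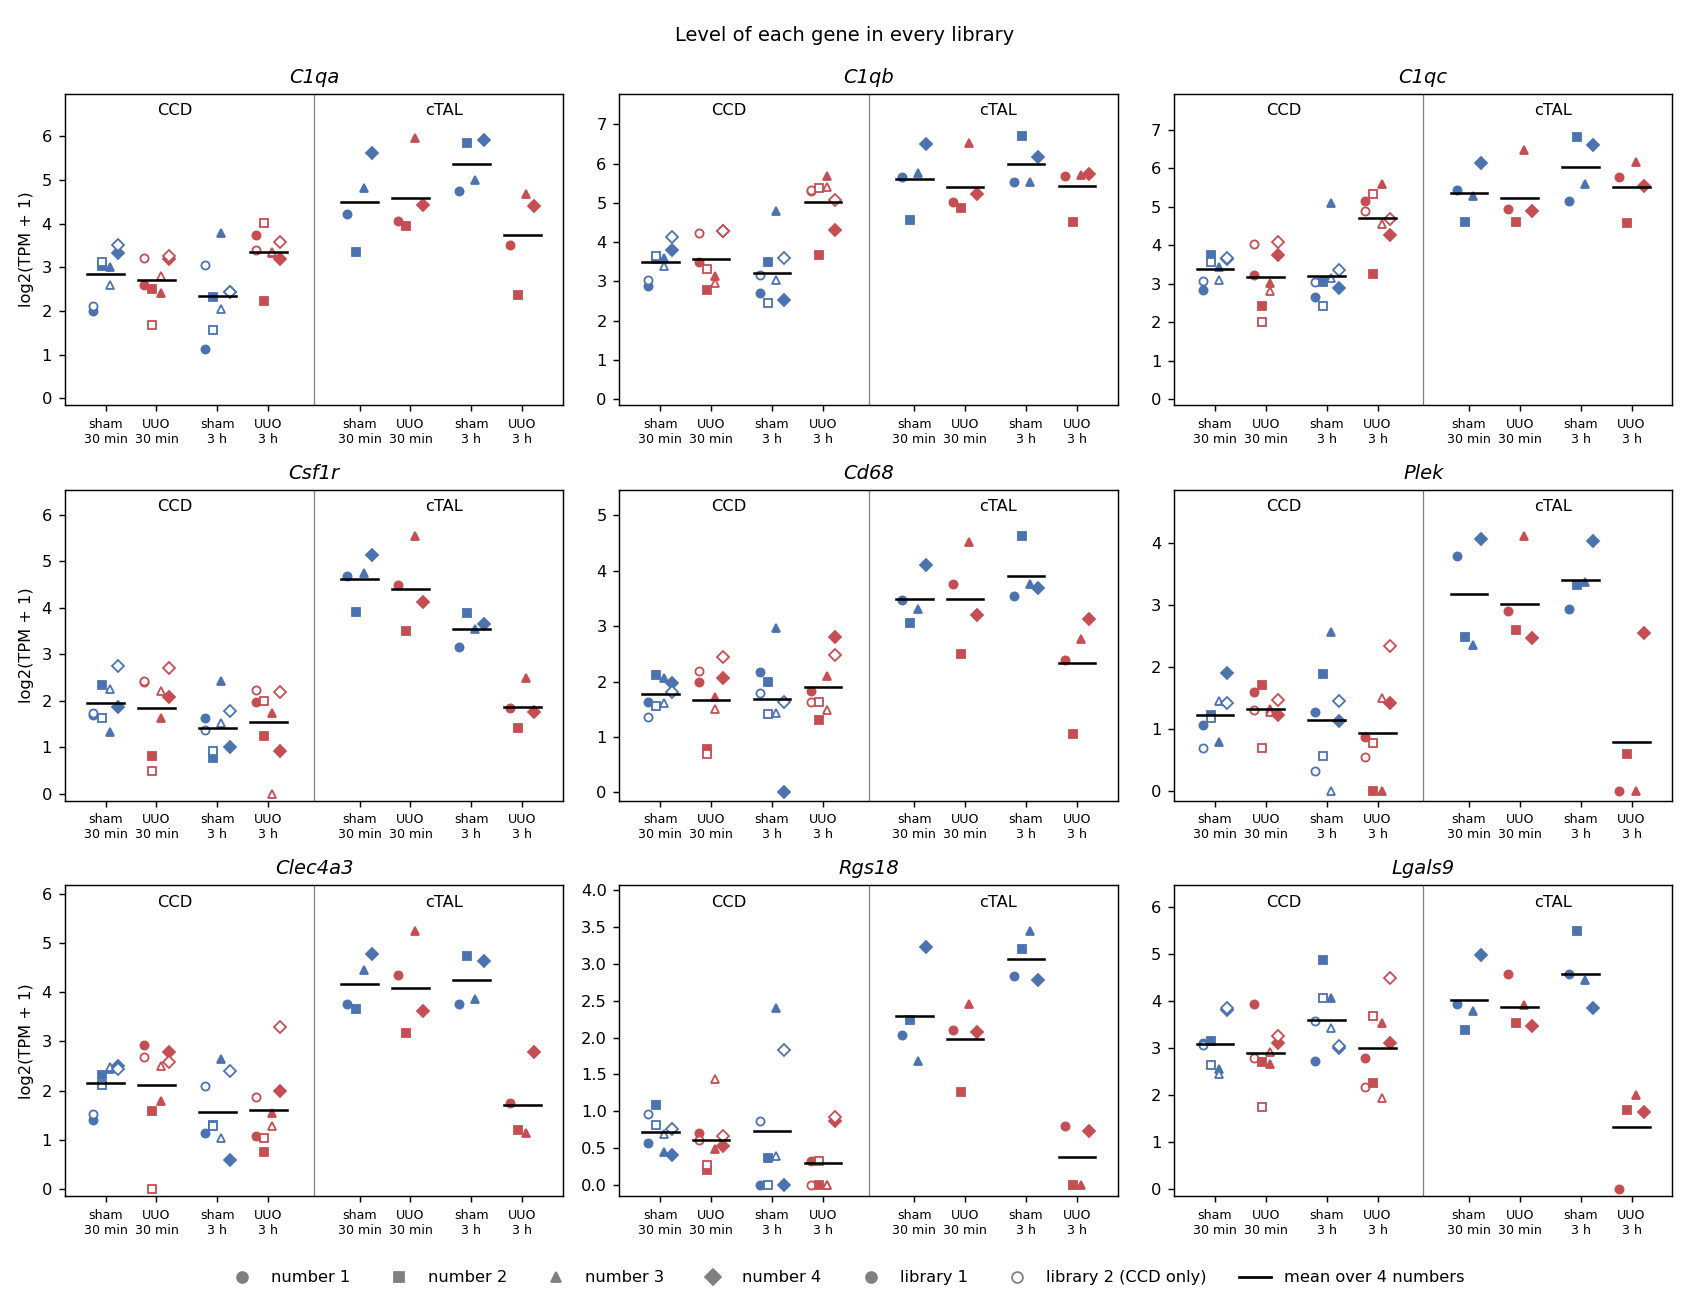
Level of each of the 9 genes, as log2(TPM + 1), in every library of the 8 groups, with CCD left and cTAL right of the grey line, sham in blue and UUO in red, the shape giving the replicate number, open symbols the second CCD library and bars the group mean. At 3 h the means of the C1q genes lie higher in UUO than in sham in CCD, and Lgals9, Rgs18, Plek and Clec4a3 lie lower in UUO than in sham in cTAL, while the arms overlap for every gene at 30 min.

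The first comparison asks where the 9 transcripts were found in the kidneys of sham-operated rats. All 9 genes passed the filter on low values, 1 TPM or more in at least 4 replicates, but Rgs18 did so through cTAL alone and Plek, at 1 TPM or more in 3 of 4 CCD replicates, needed cTAL as well, so for both the filter favoured a lower level in CCD. Of the 7 genes that would have passed on their CCD replicates alone, 6 were lower in CCD than in cTAL at 30 min by limma at an adjusted p under 0.05 over 11648 genes, and 11.5% of all genes tested were called lower in CCD and 38.0% higher. The median difference over the 7 genes was -1.99 on the log2(TPM + 1) scale, where the median of all genes was 0.30. Differences and folds throughout are on this scale, which understates the change of genes with low values. In 5 of the 7 genes every CCD replicate lay below every cTAL replicate, which 10.7% of all genes did. When TPM were rescaled by median of ratios, the median of all genes moved to 0.01 and the calls over all genes moved from 4424 higher and 1342 lower to 2842 higher and 2417 lower, while the 6 genes stayed called lower and Lgals9 joined them. Genes chosen for low levels in cTAL after ligation need a measurable level there without it, so the direction of this comparison is not independent of the choice.

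Csf1r had the widest gap. Its 4 sham CCD replicates stood at 2.28, 3.07, 2.63 and 4.20 TPM and its 4 sham cTAL replicates at 24.7, 14.0, 25.8 and 34.3 TPM. The arms of the comparison did not overlap, and the difference was -2.67 (6.37-fold, adjusted p = 5.04e-05; exact permutation p = 0.0286, two-sided, the smallest that 4 against 4 can give). C1qb was at 6.78, 11.1, 10.3 and 14.7 TPM in CCD against 49.9, 22.6, 52.9 and 89.2 TPM in cTAL, a difference of -2.12 (4.33-fold, adjusted p = 0.00150). C1qc lay 3.97-fold lower and C1qa 3.17-fold lower in CCD, and for C1qa the lowest cTAL replicate, at 9.23 TPM, was under the highest CCD replicate, at 9.80 TPM (adjusted p = 0.0155 by limma, exact permutation p = 0.0571). Number 4 was the highest and number 2 the lowest of the cTAL replicates for all 3 C1q genes.

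The lysosomal glycoprotein gene Cd68, a general marker of macrophages, lay 3.29-fold lower in CCD, Clec4a3, which encodes a C-type lectin receptor of myeloid cells, 4.06-fold, Plek, which encodes pleckstrin, a protein kinase C substrate of platelets and leukocytes, 3.88-fold. Rgs18, a regulator of G protein signalling in myeloid cells and platelets, was at 0.490 to 0.945 TPM in CCD and at 2.22 to 8.38 TPM in cTAL, and no count is drawn from it because of the filter. Lgals9, which encodes the sugar-binding protein galectin-9, was the exception. It stood at 7.5, 6.59, 4.69 and 13.3 TPM in CCD and at 14.4, 9.46, 12.9 and 30.8 TPM in cTAL, so the ranges overlapped, and its difference of -0.95 did not pass the threshold (adjusted p = 0.0613; exact permutation p = 0.0857). At 30 min CCD and cTAL samples of the same number deviated together, and with the replicate number as a block the Lgals9 difference passed (adjusted p = 0.00305). It also passed without cTAL number 2 (adjusted p = 0.0352) or without CCD number 4 (adjusted p = 0.0293), and over the 8 fits that left out 1 replicate its adjusted p reached 0.157. Lgals9 reads may be shared with the near copy Lgals5, and those of Clec4a3 with its Clec4a neighbours, so the values of both are uncertain to that extent.

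Other genes of these cells were measured beside them. Of the 12 macrophage markers outside the 9 genes that passed the filter in this comparison, 10 were lower in CCD, 1 was higher and 1 was not called. The lower ones included Cd74, the invariant chain of class II antigen presentation (6.09-fold), Clec10a (3.61-fold), Adgre1, which encodes F4/80 (4.33-fold), and Lyz2 (4.73-fold). Adgre1 was at 0.52 to 0.785 TPM in CCD and passed the filter through cTAL alone. Others of the 10 were below 1 TPM in some or all CCD replicates and needed cTAL too. For these genes the filter favoured a lower level in CCD. The higher one was the costimulator gene Cd86 (2.39-fold). Pan-leukocyte genes divided in the same manner, with 7 of 10 lower, Coro1a at 4.77-fold, Cd53 at 3.88-fold, Tyrobp at 4.29-fold and Laptm5 at 4.08-fold among them, and 1 higher, Cyba at 1.61-fold, a call that was absent after rescaling. Some others of the 7 were below 1 TPM in every CCD replicate, so the filter favoured that direction for them too. All 4 class II genes tested were lower in CCD (RT1-Ba, RT1-Bb, RT1-Da and RT1-Db1). Of 8 endothelial markers 7 were lower in CCD as well, and their summed level ran from 17.4 to 57.1 TPM in the sham CCD and from 164 to 272 TPM in the sham cTAL. The part of adherent cells in the segment difference was not tested.

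The wider pathways showed a mixed pattern between the sham segments. Among 7 genes tested from the classical complement list, C5ar1, the receptor of the C5a fragment (3.62-fold), Cd55 (3.11-fold), C1r (2.07-fold) and C2 (2.44-fold) were lower in CCD, and C1qbp (4.87-fold) was higher. Cd55, at 0.05 to 0.19 TPM in CCD, passed the filter through cTAL alone. C5ar1, C1r and C2 were below 1 TPM in some CCD replicates and needed cTAL as well. For these 4 genes the filter favoured a lower level in CCD. In the CSF1 axis, where 4 genes were tested, Il34, the second ligand of the receptor encoded by Csf1r, was 9.73-fold lower in CCD, at 1.89 ± 0.708 TPM against 26.6 ± 5.58 TPM (SD, n = 4, adjusted p = 4.78e-06), and the other 3 were not called. Of the 3 other galectins tested, Lgals3 was 68.5-fold higher in CCD (564 ± 167 against 7.24 ± 2.35 TPM), Lgals1 was 2.44-fold lower, and Lgals8 was called 1.28-fold higher, but not after rescaling (adjusted p = 0.748). The 10 lysosomal genes tested were all higher in CCD, with a median of 1.48 on the log2 scale, opposite to Cd68. Over all genes 38.0% were called higher in CCD, with a median of 0.30. The lysosomal calls were not counted after rescaling.

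The second comparison asks whether the 9 transcripts differed 30 min after ligation. No difference was detected. By limma, 0 of the 8 genes that passed the filter in CCD were called (0 also at an unadjusted p under 0.05), where 0.0264% of all genes were called, and 0 of 9 in cTAL (0 likewise), where 0.00910% were. Over all genes, 1789 of 11369 in CCD and 250 of 10993 in cTAL were at an unadjusted p under 0.05. The arms overlapped for every gene in both segments, and all genes without overlap made up 8.76% in CCD and 1.72% in cTAL. Rgs18 failed the filter in CCD, where it stood at or below 1.07 TPM in every replicate.

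In CCD the differences between UUO and sham at 30 min ran from -0.21 for C1qc to 0.11 for Plek, with standard errors of 0.19 to 0.44 and adjusted p of 0.709 to 0.955, and the median of all genes was -0.31. The exact permutation p over the 9 genes ran from 0.543 to 0.943. C1qb was at 6.78, 11.1, 10.3 and 14.7 TPM in sham and at 14.1, 7.41, 7.34 and 18.5 TPM in UUO. UUO number 2 was the lowest of its arm for every gene but C1qb, with Csf1r at 0.575 TPM against 2.87 to 4.41 TPM in the other UUO replicates. Its library 2 held 8744 genes at 1 TPM or more, the fewest of any library at 30 min, and its library 1 held 10831. Csf1r stood at 0.75 TPM in library 1 and at 0.40 TPM in library 2. In cTAL the differences ran from -0.32 for Rgs18 to 0.09 for C1qa, with standard errors of 0.37 to 0.55, an adjusted p of 1.00 for each gene, an exact permutation p of 0.514 to 1.00, and a median of all genes of -0.07. There UUO number 3 was the highest replicate for every gene but Lgals9, with C1qa at 61.6 TPM against 14.4 to 20.4 TPM in the others. The test of the difference between the segments' responses called 0 of the 9 genes and 0% of 12343 genes (863 of them at an unadjusted p under 0.05), with differences of the 9 genes from -0.22 to 0.27 and standard errors of 0.43 to 0.70.

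Among the genes around them, none of the 9 macrophage markers tested in CCD and none of the 13 in cTAL was called by limma at 30 min (0 in each at an unadjusted p under 0.05). In the macrophage, pan-leukocyte, complement, CSF1 axis and galectin lists, the genes of smallest p in CCD were, in that order, Cd86 (log2 difference 0.25, adjusted p = 0.490), Lcp1 (-0.81, adjusted p = 0.495), C1qbp (-1.32, adjusted p = 0.256), Irf8 (-0.09, adjusted p = 0.782) and Lgals1 (-0.31, adjusted p = 0.528). Of the 4 complement genes tested in CCD, 1 was at an unadjusted p under 0.05 by limma, C1qbp, at means of 106 TPM in sham and 34.8 TPM in UUO. In cTAL those of the same 5 lists were Cd74 (0.28), Coro1a (-0.57), Serping1 (1.08), Csf2rb (0.55) and Lgals8 (-0.17), each with an adjusted p of 1.00. None of the other lists had a gene called by limma at 30 min (3 genes in CCD and 7 in cTAL were at an unadjusted p under 0.05).

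The third comparison is the one the genes were chosen on. In CCD 3 h after ligation the 3 C1q genes lay above sham in every replicate, and the 6 others overlapped. C1qb was at 6.76, 7.34, 17.0 and 7.99 TPM in sham and at 38.8, 26.1, 45.9 and 25.7 TPM in UUO. The lowest UUO replicate stood above the highest sham replicate, and the means were 9.78 ± 4.87 and 34.1 ± 9.95 TPM (SD, n = 4), a difference of 1.79 on the log2 scale (3.47-fold).

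C1qc was at 6.27, 5.81, 20.7 and 7.82 TPM in sham and at 31.8, 24.1, 34.9 and 21.5 TPM in UUO (2.85-fold). C1qa had the smallest difference of the 3 chains: 4.245, 2.995, 7.97 and 4.43 TPM in sham against 10.96, 9.48, 9.13 and 9.61 TPM in UUO (2.01-fold). Sham number 3 was the highest sham replicate for all 3 chains because of 1 of its 2 libraries, which held C1qb at 26.8 and C1qc at 33.5 TPM where the other held 7.26 and 7.82 TPM. With that library left out the differences were 2.01 for C1qb, 1.76 for C1qc and 1.23 for C1qa. In UUO, library 1 of number 2 stood at 11.9 TPM for C1qb, 8.51 TPM for C1qc and 3.71 TPM for C1qa, within the range of the sham libraries, while its library 2 held 40.4, 39.7 and 15.3 TPM. Other UUO libraries also lay under the highest sham library for each chain. Single libraries ran up to 26.8, 33.5 and 12.8 TPM in sham for C1qb, C1qc and C1qa. The lack of overlap thus holds for the mean of the 2 libraries of each number and not for single libraries. Between the 2 libraries of a number, the SD of log2 values at 3 h was 0.82 for C1qa, 0.75 for C1qb and 0.80 for C1qc, larger than the SD between numbers of the same group, 0.33, 0.48 and 0.53, and the same held for each of the 6 other genes. At 30 min the SD between libraries of a number was the smaller one for 7 of the 9 genes, all but Plek and Rgs18.

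Csf1r did not move with the C1q genes in CCD at 3 h. It was at 1.84, 0.785, 3.12 and 1.71 TPM in sham and at 3.33, 2.17, 1.16 and 2.22 TPM in UUO, a difference of 0.11. Cd68 differed by 0.23, Clec4a3 by 0.05, Plek by -0.22 and Lgals9 by -0.60, with overlapping arms throughout, and Rgs18, which failed the filter, by -0.43. Zeros were common: 12 of the 144 CCD values of the 9 genes at 3 h were listed at 0, of which 7 belonged to Rgs18, against 1 of 144 at 30 min. Over all genes of this comparison 5.0% were called higher and 8.04% lower in UUO, and 6.25% lay higher without overlap. These shares stand beside counts the choice of genes fixed. Rescaling turned the calls over all genes from 526 higher and 847 lower to 711 higher and 434 lower, moved the median of all genes from -0.14 to 0.00, and left the C1q differences at 1.94, 1.65 and 1.13 for C1qb, C1qc and C1qa.

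In cTAL 3 h after ligation all 9 genes had lower means in UUO, and in 7 of them every UUO replicate lay below every sham replicate. Lgals9 had the largest difference: it was at 22.9, 43.7, 20.7 and 13.4 TPM in sham and at 0, 2.23, 2.99 and 2.13 TPM in UUO, -3.25 on the log2 scale (9.54-fold). Rgs18 was at 6.10, 8.17, 9.85 and 5.89 TPM in sham and at 0.750, 0, 0 and 0.670 TPM in UUO (6.39-fold), and Plek at 6.64, 9.02, 9.34 and 15.4 TPM in sham and at 0, 0.520, 0 and 4.89 TPM in UUO (6.17-fold). With a pseudocount of 0.1 TPM in place of 1 TPM, these 3 differences became -4.36, -4.71 and -4.54, since some UUO libraries were listed at 0. Clec4a3 went from 12.6, 25.8, 13.5 and 23.9 TPM to 2.34, 1.28, 1.19 and 5.90 TPM (5.82-fold lower).

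The receptor gene Csf1r was at 7.92, 13.8, 10.6 and 11.5 TPM in the sham cTAL and at 2.59, 1.67, 4.6 and 2.36 TPM in UUO (3.21-fold lower), with no overlap. Cd68 was 2.98-fold lower, at means of 14.7 ± 6.09 and 4.71 ± 2.82 TPM (SD, n = 4). The C1q chains parted from each other here. C1qa was at 25.8, 56.6, 31.0 and 59.9 TPM in sham and at 10.47, 4.19, 24.8 and 20.3 TPM in UUO (3.10-fold lower) without overlap, whereas C1qb, with means of 66.4 ± 27.6 and 44.3 ± 14.9 TPM, and C1qc, with 72.9 ± 37.8 and 48.1 ± 19.8 TPM, overlapped between arms (-0.57 and -0.53). For C1qb 3 UUO replicates stood at 50.8, 51.7 and 52.7 TPM, within the sham range, and number 2 at 21.9 TPM. Of all genes tested in this comparison 4.06% were called higher and 7.64% lower in UUO, and 14.1% lay lower without overlap. Rescaling turned these calls from 407 higher and 766 lower to 520 higher and 405 lower and moved the median of all genes from -0.12 to 0.02. After it the 9 differences ran from -3.13 for Lgals9 to -0.37 for C1qc.

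**Figure D2:**
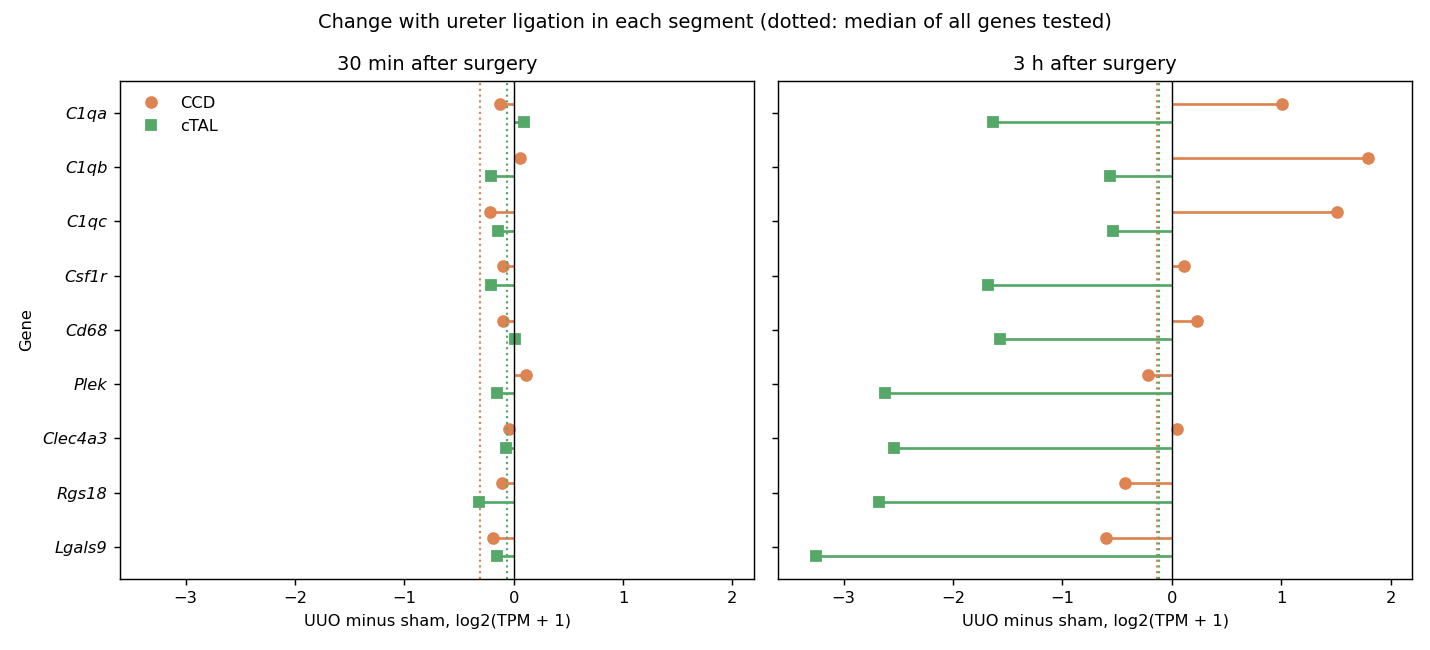
Difference between UUO and sham in log2(TPM + 1) for each gene, CCD as circles and cTAL as squares, at 30 min and at 3 h, with dotted lines at the median of all genes tested in each segment. At 30 min all points lie between -0.32 and 0.11, and at 3 h the C1q genes lie at 1.01 to 1.79 in CCD while all 9 genes lie at -3.25 to -0.53 in cTAL.

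The gap between the segments was smaller in the 3 h UUO libraries than in the sham libraries of that time. The difference between CCD and cTAL was -3.03 for C1qa, -2.77 for C1qb, -2.84 for C1qc and -2.13 for Csf1r in sham at 3 h. In UUO at 3 h it was -0.39, -0.40, -0.79 and -0.34. For Lgals9 it went from -0.99 in sham to 1.67 in UUO, and every UUO replicate of CCD, at 4.70 to 14.6 TPM, stood above every one of cTAL, at 0 to 2.99 TPM. In sham at 3 h every CCD replicate lay below every cTAL replicate for 8 of the 9 genes, Lgals9 being the other, and in UUO at 3 h this held for none of them. These values share the libraries on which the genes were chosen and were not tested.

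**Figure D3:**
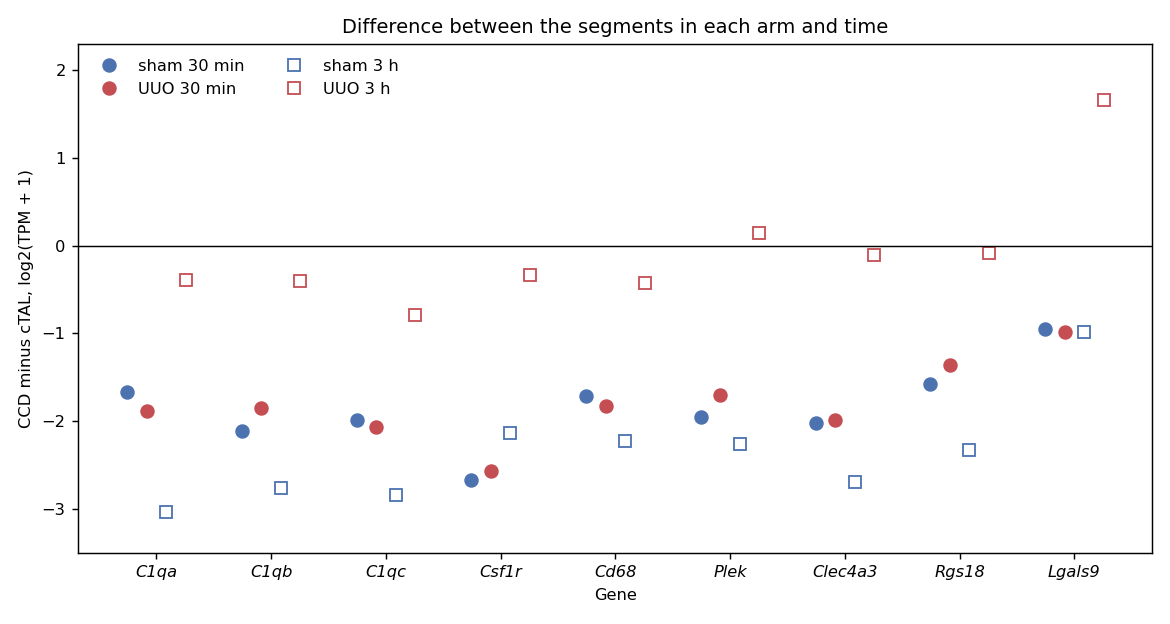
Mean log2(TPM + 1) in CCD minus that in cTAL for each gene, in sham (blue) and UUO (red) at 30 min (filled circles) and 3 h (open squares). Both arms at 30 min and sham at 3 h lie below 0 for every gene, at -3.03 to -0.95, while UUO at 3 h lies between -0.79 and 1.67.

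The C1q genes and the receptor gene Csf1r could be compared within each replicate, which removes a factor common to both. The summed TPM of C1qa, C1qb and C1qc over that of Csf1r ran from 9.39 to 20.6 in sham CCD at 3 h and from 24.5 to 77.9 in UUO (2.52-fold on geometric means). In cTAL it ran from 11.7 to 19.8 in sham and from 29.3 to 50.2 in UUO (2.41-fold). In both segments all 4 UUO replicates stood above all sham replicates, although the C1q sum lay higher with ligation in CCD (56.8 to 89.9 TPM in UUO and 16.1 to 45.7 TPM in sham) and its mean lay lower with ligation in cTAL (107 ± 41.4 and 183 ± 80.6 TPM, SD, n = 4). The 77.9 in CCD came from UUO number 3, 1 of whose 2 libraries listed Csf1r at 0. Against Cd68 the C1q sum was 2.72-fold higher with UUO in CCD and 2.18-fold higher in cTAL, with 3 of 4 UUO replicates above all sham replicates in each segment. The C1q genes were chosen for a rise in CCD, and Csf1r and Cd68 belong to the set chosen for a fall in cTAL. That choice favoured a higher ratio with UUO in CCD and may have done so in cTAL. The ratios at 3 h are therefore a description without a test. At 30 min, where it could be tested, the ratio to Csf1r did not differ detectably in CCD (exact permutation p = 0.857) or in cTAL (exact permutation p = 0.686). Sham levels of this ratio were also higher at 3 h, with medians of 13.2 in CCD and 16.6 in cTAL, than at 30 min, with 9.07 and 4.52, and the 2 times come from separate tables, so time and table cannot be told apart.

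The chains did not keep their ratio to each other either. C1qb over C1qa ran from 1.59 to 2.45 in sham CCD and from 2.67 to 5.03 in UUO CCD at 3 h, and from 1.18 to 1.83 in sham cTAL and from 2.09 to 5.23 in UUO cTAL. C1qc over C1qa ran from 1.48 to 2.59 in sham and from 2.24 to 3.82 in UUO in CCD, which overlapped, and from 1.35 to 1.99 in sham and from 2.24 to 5.46 in UUO in cTAL, which did not. At 30 min the ranges of both ratios overlapped between arms in each segment.

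**Figure D4:**
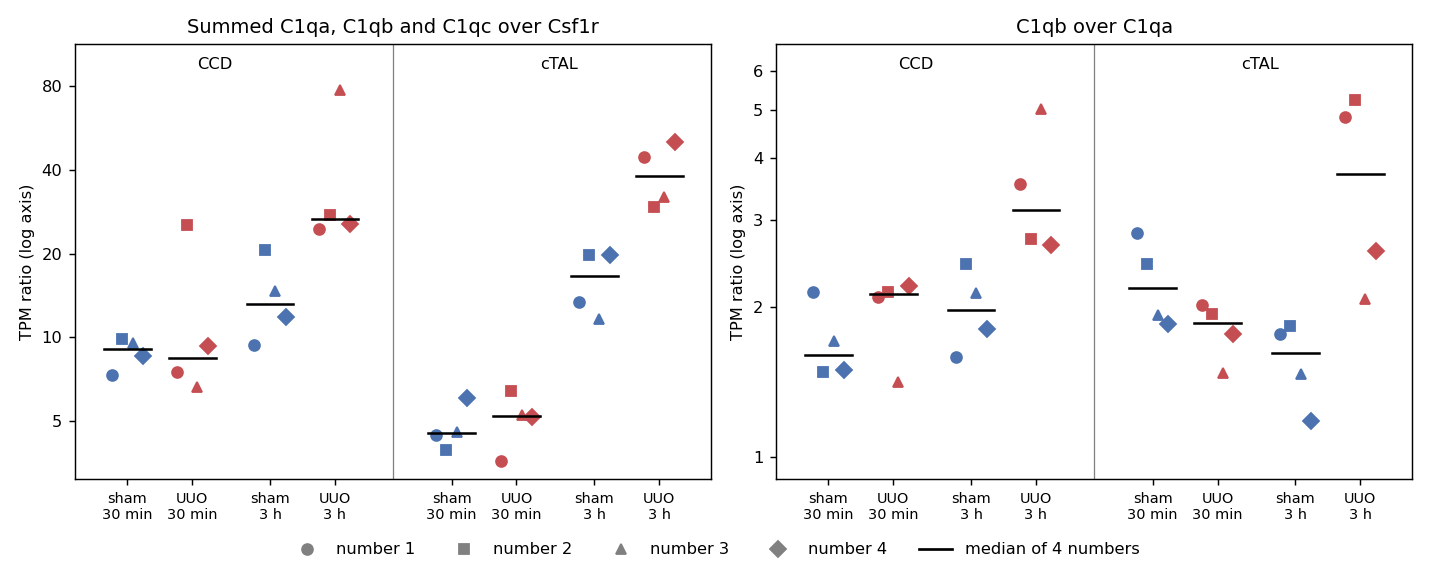
Left, summed TPM of C1qa, C1qb and C1qc over that of Csf1r, and right, TPM of C1qb over C1qa, in each of the 4 numbered replicates of the 8 groups on log axes, sham in blue and UUO in red with bars at the group median. Both ratios lie higher in UUO than in sham at 3 h in both segments without overlap, and overlap between arms at 30 min. The genes were chosen on their 3 h values, so the differences at 3 h are a description.

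Macrophage and leukocyte markers that the choice did not use were lower in the cTAL at 3 h in part. Of 13 macrophage markers tested beside the 9 genes, 5 were lower in UUO, none was higher and 8 were not called, with a median of -1.56 where the median of all genes was -0.12. Cx3cr1, the fractalkine receptor of resident macrophages, fell 4.82-fold (7.69 ± 2.21 to 0.855 ± 0.650 TPM, SD, n = 4, adjusted p = 0.00532), Lyz2 4.12-fold (adjusted p = 0.0151), Fcgr1a 3.68-fold (adjusted p = 0.0294) and Aif1 4.05-fold (adjusted p = 0.0430). The fifth, Trem2, was chosen for naming after its value was seen (2.95-fold, adjusted p = 0.0444). Cx3cr1, Fcgr1a and Trem2 reached 0 TPM in UUO and needed the sham replicates to pass the filter, which favoured a fall. Of 9 pan-leukocyte genes 4 fell: Fcer1g 4.65-fold, Cd53 4.46-fold, Tyrobp 2.31-fold and Lcp1 2.66-fold. Cd53 and Lcp1 went below 1 TPM in UUO and likewise needed the sham replicates. After rescaling 3 of the 5 macrophage markers and 2 of the 4 pan-leukocyte genes stayed called, and leaving out 1 replicate in turn left 2 to 5 and 0 to 4. These markers come from the libraries the 9 genes were chosen on and are not independent support. Of the class II genes 0 of 4 were called by limma, 0 also at an unadjusted p under 0.05 (median -0.27). The sum over the macrophage markers ran from 2383 to 3619 TPM in sham and from 1233 to 2154 TPM in UUO. Lyz2 alone had means of 787 TPM in sham and 211 TPM in UUO, so the sum does not weigh the markers equally.

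Endothelial genes moved in the same libraries. In cTAL at 3 h, 3 of 7 endothelial markers tested fell, Cdh5 3.23-fold, Emcn 3.40-fold and Esam 1.82-fold, of which Cdh5 alone stayed called after rescaling, and the summed level of the list was 189 to 485 TPM in sham and 103 to 187 TPM in UUO. Proximal tubule markers moved the other way, with 4 of 7 higher in UUO and a summed level of 6.74 to 180 TPM in sham and 216 to 866 TPM in UUO. The part of tissue carried along with the segment in the lower levels of the 9 genes was not tested.

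In the CCD at 3 h, 1 of the 7 macrophage markers tested rose and 1 fell. Over all genes 5.0% were called higher and 8.04% lower. The median over the 7 markers was 0.52, with 2 of them negative, and the median of all genes was -0.14. By limma, 4 of the 7 were at an unadjusted p under 0.05, as were 3253 of all 10530 genes tested. Ctss, which encodes the lysosomal protease cathepsin S, rose 2.01-fold (5.40 ± 1.39 to 11.8 ± 2.34 TPM, SD, n = 4, adjusted p = 0.0189) and Cd86 fell 1.49-fold (adjusted p = 0.0384), a call that rescaling ended (adjusted p = 0.116). Of 8 pan-leukocyte genes Tyrobp rose 1.86-fold (adjusted p = 0.0497), a call kept by 3 of 15 alternative fits. The median over these 8 genes was 0.29, with 3 of them negative. The summed macrophage markers ran from 259 to 709.6 TPM in sham and from 314 to 1060 TPM in UUO, which overlapped.

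Markers of the segment itself and of other cells differed in the same CCD libraries. All 5 principal cell markers fell, Avpr2 3.40-fold and Aqp2 2.37-fold among them, and their sum was 14732 to 17023 TPM in sham and 4851 to 8834 TPM in UUO, without overlap. Thick ascending limb markers summed to 3935, 201, 4354 and 86.1 TPM in sham and to 171, 86.3, 77.0 and 9837 TPM in UUO, where CCD replicates at 30 min lay between 42.8 and 495 TPM. The 3 replicates that stand apart are sham numbers 1 and 3 and UUO number 4, and the differences without one of these in turn were 1.70, 2.03 and 1.91 for C1qb. Of 3 fibroblast and smooth muscle markers tested, Tagln, which encodes the smooth muscle protein transgelin, rose 8.13-fold. Genes of red blood cells summed to 28.2 to 1190 TPM in sham and 1497 to 7909 TPM in UUO, and 4 of 5 loci rose, among them Hbb 31.1-fold. Platelet markers summed to 1.495 to 5.91 TPM in sham and 7.47 to 19.3 TPM in UUO, with Pf4, a platelet chemokine that macrophages also express, 5.04-fold higher (adjusted p = 0.00742) and Ppbp and Itgb3 listed at 0 in every UUO library. Proximal tubule markers summed to 69.7 to 252 TPM in sham and 184 to 984 TPM in UUO. Neutrophil markers summed to 2.22 to 2.93 TPM in sham and 19.1 to 135 TPM in UUO, with Lcn2, which injured tubule cells also express, at 44.1 ± 36.9 TPM in UUO and Mmp8 and Camp listed at 0 in every UUO library. The part of blood, of fewer principal cells or of neighbouring tissue in the C1q values was not tested.

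The rest of the classical complement pathway gave few calls. In CCD at 3 h, 2 of 6 genes tested rose: Serping1, which encodes the C1 inhibitor, from 0.884 ± 0.543 to 5.06 ± 2.19 TPM (3.0-fold on the log2(TPM + 1) scale, adjusted p = 0.0158), and C4a, which encodes the component that activated C1 cleaves, from 0.386 ± 0.436 to 3.04 ± 0.513 TPM (2.69-fold, adjusted p = 0.0112). Over all genes 5.0% were called higher there. C4a was below 1 TPM in every sham replicate and passed the filter through UUO alone. Serping1 was so in some sham replicates and needed UUO as well, so the filter favoured a rise for both. In cTAL 1 of 10 fell, C5ar1, from 7.63 ± 2.19 to 0.803 ± 0.694 TPM (4.98-fold, adjusted p = 0.00502), where 7.64% of all genes were called lower. It was at 0 to 1.63 TPM in UUO and needed the sham replicates to pass the filter, which favoured a fall. In the CSF1 axis no gene of 3 was called by limma in CCD (1 at an unadjusted p under 0.05), where Csf1 had the smallest p (2.05-fold, adjusted p = 0.0556), and in cTAL Il34 fell 2.10-fold, from 25.7 ± 7.63 to 11.5 ± 3.02 TPM (adjusted p = 0.0372), a call that rescaling ended (adjusted p = 0.0887). Among galectins other than Lgals9, Lgals5 rose 3.17-fold in CCD (0.216 ± 0.274 to 3.09 ± 1.33 TPM, adjusted p = 0.0142) and Lgals2 rose 3.56-fold in cTAL (adjusted p = 0.0415), a call kept by 2 of 12 alternative fits. Lgals5 was at 0 to 0.57 TPM in sham and passed the filter through UUO alone. Lgals2, at 0 to 1.44 TPM in sham, needed UUO as well, so the filter favoured a rise for both.

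The last comparison asks which of the 9 transcripts moved together from replicate to replicate. For this the log2 value of each replicate was taken as its deviation from the mean of its group, which leaves 16 deviations per segment over the 4 groups and removes the group differences the genes were chosen on. Pearson's r and Spearman's rho were computed for 17 relations with permutation within groups and Benjamini-Hochberg adjustment. The deviations are not fully independent, since at 30 min samples of the same number deviated together. The 3 chains of C1q followed each other in both segments: C1qb with C1qc at r = 0.93 in CCD and 0.94 in cTAL (rho 0.91 and 0.93), C1qa with C1qb at 0.83 and 0.93 (rho 0.83 and 0.94), and C1qa with C1qc at 0.87 and 0.91 (rho 0.88 and 0.89). The highest adjusted p of these 6 relations was 0.000616 for r (permutation test, raw p = 0.00029) and 0.00107 for rho (permutation test, raw p = 0.00044). For the other relations the p given are those of r. Without the 2 samples farthest from the median the 6 values of r lay between 0.80 and 0.93.

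The receptor gene Csf1r followed the mean of the C1q genes in cTAL (r = 0.88, rho = 0.88, raw p = 5e-05 and adjusted p = 0.000255 by permutation, r = 0.84 without the 2 farthest samples), and so did Cd68 (r = 0.84, rho = 0.84, adjusted p = 0.000595, r = 0.75 without them) and Clec4a3 (r = 0.73, rho = 0.72, adjusted p = 0.0115, r = 0.63 without them). Plek (r = 0.50, adjusted p = 0.131), Rgs18 (r = 0.47, adjusted p = 0.144) and Lgals9 (r = 0.30, adjusted p = 0.323) did not pass. In CCD Csf1r (r = 0.68, rho = 0.61, adjusted p = 0.0213) and Clec4a3 (r = 0.62, rho = 0.66, adjusted p = 0.0315) passed with r of 0.59 and 0.60 without the 2 farthest samples, while Cd68 (r = 0.55, adjusted p = 0.101), Plek (r = 0.28, adjusted p = 0.282) and Lgals9 (r = 0.23, adjusted p = 0.446) did not. Rgs18 was left out in CCD because of its low level.

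**Figure D5:**
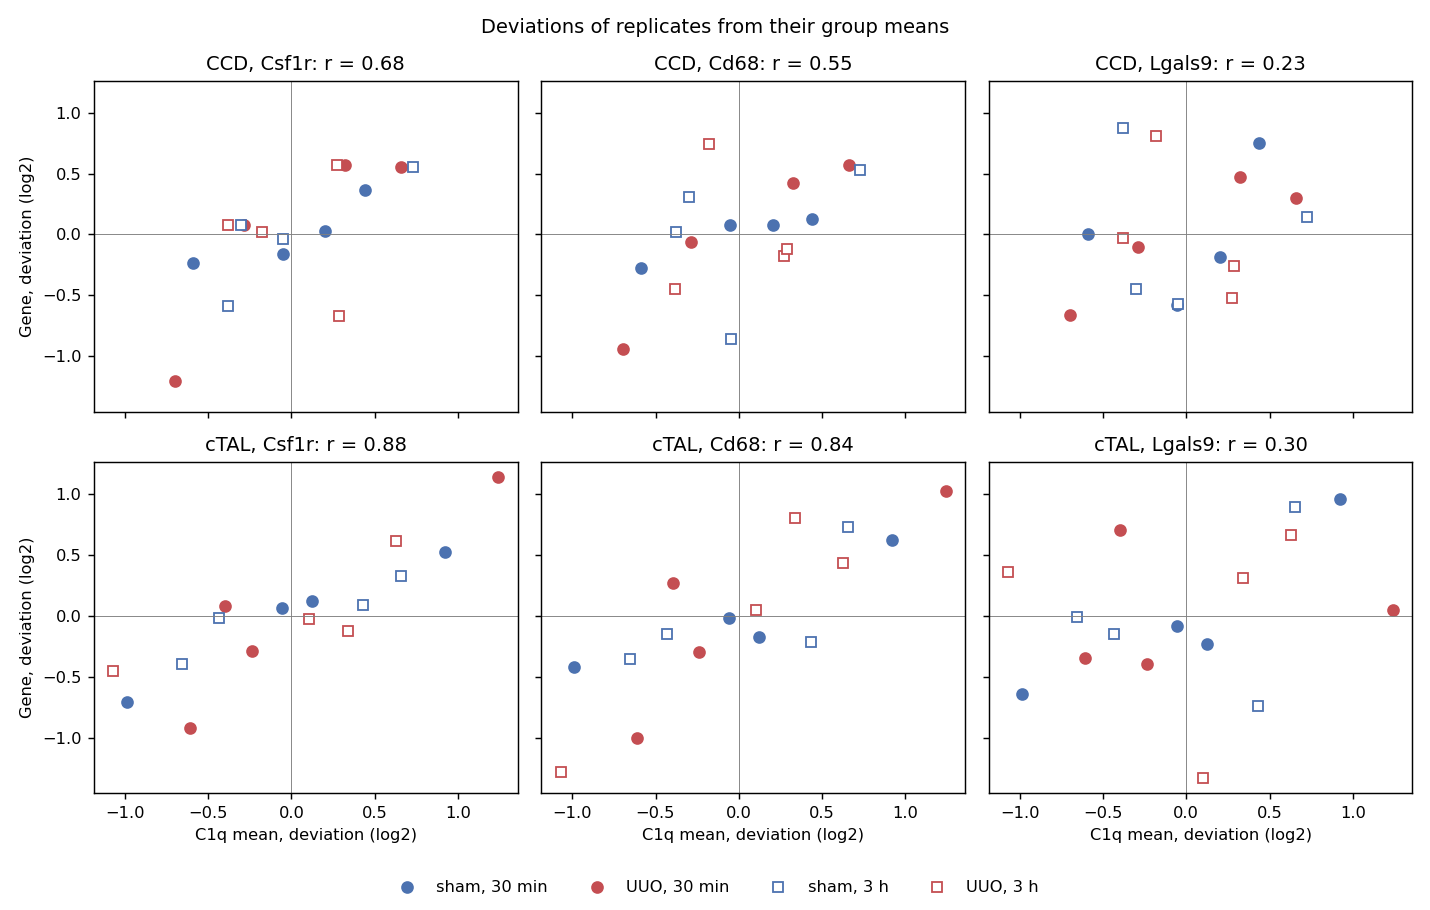
Deviation of each replicate from its group mean, in log2(TPM + 1), for the mean of C1qa, C1qb and C1qc on the horizontal axis and for Csf1r, Cd68 or Lgals9 on the vertical axis, CCD above and cTAL below, with 16 replicates in each panel coloured by arm. Csf1r and Cd68 follow the C1q mean closely in cTAL (r = 0.88 and 0.84), and Lgals9 does so in neither segment (r = 0.23 and 0.30).

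Over all other genes the deviations most like those of the C1q mean were, in cTAL among 9638 genes, those of Slc11a1 (r = 0.93), Psmb8 (0.92), Clec4a1 (0.92), Aif1 (0.92) and Pld4 (0.91), where Csf1r ranked at 8 and Cd68 at 15. Slc11a1 encodes a metal transporter of phagosomes and Aif1 a cytoskeletal protein of macrophages. In CCD among 10200 genes they were Yipf1 (0.92), Cybb (0.89), which encodes the catalytic subunit of the phagocyte NADPH oxidase, Casp2 (0.84), Pld4 (0.83) and Tada1 (0.81). Pld4 was the one gene named in both segments. These correlations are over 16 deviations per segment, all points share libraries and TPM scaling, and no p is given for them.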

How the data were processed

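The deposited values are TPM (relative transcript abundance, scaled for length and library) per gene and library, which the authors made with STAR 2.7.3, RSEM 1.3.3 and the genome Rnor_6.0, per the submitters' processing notes. The cDNA was amplified with a SMARTer V4 kit and made into libraries with Nextera XT, per the labels' protocols. A table for 30 min and one for 3 h hold the same 32883 identifiers, and all 9 genes had the same name in both. Reads per library are not given in the sources used here, so depth is unknown and precision rests on the 4 replicates per group.

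For CCD the mean of the log2 values of both libraries stood for each number. limma 3.58.1 (R 4.3.3) was fitted to log2(TPM + 1) with a mean trend, on genes at 1 TPM or more in at least 4 replicates of the comparison, with Benjamini-Hochberg adjustment over all genes tested and a threshold of 0.05. Each UUO comparison used the groups it is about. Single values were tested by exact two-sided permutation, and correlations by 100000 permutations within groups (scipy 1.17.1, numpy 2.4.6). The model was tested on simulated data.

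The members and the 16 marker and pathway lists were chosen with earlier results of these data known. Some genes of these lists are not reported here and were left out of their counts and sums. Named from 5 of these lists are the called genes, at most 4 per list and comparison by p, or the gene of smallest p where none was called. From the others, genes were named to describe the list. The correlations with the 6 other members were added after the data were seen. Likeness was ranked by Pearson's r among genes tested at both times.

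Replicate numbers pair the samples where each same-number correlation of deviations is over 0.1. They did so at 30 min for UUO and sham in CCD (0.11 to 0.23), for CCD and cTAL in sham (0.27 to 0.40) and for CCD and cTAL in UUO (0.12 to 0.58), and not for the other UUO comparisons. Promoter windows are from RefSeq (GRCr8), a later build than that of the files.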

Additional observations from a re-analysis of the deposited data

Results flagged for a closer look

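Of 72 sets of 4 replicates (9 genes in 8 groups), 4 held a replicate whose gap to the nearest of the others was an unusually large part of the whole range, and chance marks about 1 set in 20. For C1qb in the sham CCD at 3 h, number 3 stood at 17.0 TPM where the others lay between 6.76 and 7.99 TPM (gap over range 0.864). For C1qb in the UUO cTAL at 3 h, number 2 stood at 21.9 TPM where the others lay between 50.8 and 52.7 TPM (0.957). For Cd68 in the sham CCD at 30 min, number 1 stood at 1.83 TPM and the others between 2.63 and 2.72 TPM (0.877). For Plek in the sham CCD at 3 h, number 1 stood at 0.845 TPM and the others between 1.48 and 2.47 TPM (0.871).

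C1qa at 3 h lay above sham in every UUO replicate of CCD and below sham in every UUO replicate of cTAL, and the differences in the segments lay 2.64 apart on the log2 scale. The difference between the segments was not tested, since C1qa was chosen on these values.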

How the results depend on the processing

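Between the sham segments, C1qa, C1qb, C1qc, Csf1r, Cd68, Plek and Clec4a3 kept their call under all alternatives run, and Lgals9 passed under 4 of them. Rgs18 kept it under those in which it was tested, since without any 1 cTAL replicate it failed the filter. At 3 h every difference without overlap kept its direction under each alternative in which the gene was tested, which for Rgs18 in cTAL left out those without a sham replicate. At 30 min no member was called under any alternative, and the sign of most differences was not stable. In CCD, median-of-ratios rescaling gave 0.11 for C1qa, 0.039 for C1qc, 0.062 for Csf1r, 0.077 for Cd68, 0.076 for Clec4a3 and 0.053 for Lgals9, library 1 of each number alone gave -0.031 for C1qb and 0.11 for Clec4a3, library 2 alone gave 0.12 for Cd68, and, chosen after seeing the data, UUO number 2 from its library 1 alone gave -0.0071 for C1qb and 0.16 for Clec4a3. Leaving out 1 replicate in turn gave -0.39 to 0.077 for C1qa, -0.18 to 0.23 for C1qb, -0.47 to 0.10 for C1qc, -0.29 to 0.30 for Csf1r, -0.29 to 0.22 for Cd68, -0.0028 to 0.25 for Plek, -0.27 to 0.40 for Clec4a3 and -0.38 to 0.060 for Lgals9. In cTAL, a pseudocount of 0.1 gave -0.0019 for Cd68 and rescaling 0.012 for Clec4a3, and leaving out 1 replicate gave -0.36 to 0.47 for C1qa, -0.58 to 0.081 for C1qb, -0.56 to 0.11 for C1qc, -0.58 to 0.10 for Csf1r, -0.33 to 0.35 for Cd68, -0.52 to 0.15 for Plek, -0.45 to 0.24 for Clec4a3 and -0.39 to 0.17 for Lgals9.

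Counts over all genes moved more. In CCD at 30 min 3 genes were called, 956 with library 1 of each number alone, 1 with library 2 alone and 1 to 2 with 1 replicate left out. In CCD at 3 h 1373 were called, 852 without the filter, 676 with library 1 alone, 490 with library 2 alone and 458 to 1596 with 1 replicate left out. In cTAL at 3 h 1173 were called, 760 without the filter and 439 to 988 with 1 replicate left out, and at 30 min 1 was, or 0 to 1. The difference between the segments' responses at 30 min had 0 calls, 1 with a pseudocount of 0.1, 1 without the filter, 423 with library 1 alone and 0 to 1 with 1 replicate left out. Leaving out replicates uses fewer samples, and for the other settings the cause was not tested.

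With the replicate number as a block, 770 genes were called in CCD and 580 in cTAL at 3 h, where the numbers do not pair the samples (correlations -0.22 to 0.12 and -0.12 to 0.05). At 30 min the block changed the call of no member but Lgals9 between the segments. Library depth is unknown, so no limit of detection can be given for values listed at 0.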
